A study of Mus musculus with 2 samples.

Results

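The 8 genes described here are *Plat*, *Thbd*, *Srgn*, *Pth1r*, *Fst*, *Aqp8*, *Gkn1* and 3830417A13Rik, of 37310 genes in the GENCODE M1 annotation of mm9. The first 4 encode known products of parietal endoderm, and all 8 were picked by name with their counts in these libraries known, so their ratios are a description and were not tested. Non-polyadenylated (NPA) RNA was sequenced from mouse embryonic stem cells (ESCs) and from cells derived from them and labelled neuronal progenitor cells (NPCs), with 1 library per cell type. Both come from R1, a single male ESC line for which no transgene or knockout is named. The ESCs, at passage 18, were kept with leukemia inhibitory factor on mouse embryonic fibroblasts that had been stopped from dividing with mitomycin C, so fibroblast RNA can be in that library. For the NPCs the factor was withdrawn for 4 days while the cells formed embryoid bodies, which were then plated on poly-L-ornithine and fibronectin in medium with insulin, transferrin and selenium, and the cells were taken on day 7. In both, polyadenylated RNA was depleted with oligo(dT) beads and ribosomal RNA with a RiboMinus kit, so the reads of a coding gene come from RNA left in the NPA fraction.

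Parietal endoderm is the extraembryonic layer that lines the inside of the yolk sac cavity in rodents and lays down Reichert's membrane, a thick basement membrane of laminin and type IV collagen. It derives from primitive endoderm, which expresses GATA and SOX factors and also gives rise to visceral endoderm. Embryonal carcinoma and ESC lines can form such cells when they differentiate, and tissue plasminogen activator, thrombomodulin and the parathyroid hormone receptor are among the products by which they are recognised in culture.

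All 8 genes had more reads in NPCs than in ESCs. Reads were counted when they overlapped an exon on the strand of the gene, and scaled to RPM, the reads per 1000000 reads of the library, from the 4271306 reads of the ESC library and the 4399729 of the NPC library. Together the genes held 77 ESC and 4521 NPC reads, or 0.00180% and 0.103% of the libraries, a ratio of 57.0 (conditional binomial 95% interval 45.5 to 72.4). With no replicates, each ratio compares these libraries and not the cell types, and all intervals cover counting error only. In bulk RNA, more cells of a type and more RNA per cell cannot be told apart. All 8 genes were more than 2-fold higher in NPCs, where 25.5% of the 14859 genes with at least 10 reads in the libraries together were so and 13.3% were more than 2-fold higher in ESCs. A ratio over 16 was reached by 7 of the 8, against 1.08% of all genes, and *Gkn1* alone had 0 ESC reads over its exons, as did 0.828% of all genes. Because the genes were chosen by these ratios, nothing is read from those counts. The median log2 ratio was 6.16 over the 8 genes and 0.345 over all genes. Relative to that median gene, the log2 ratio was 9.01 for *Aqp8*, 6.43 for 3830417A13Rik, 6.36 for *Fst*, 5.89 for *Plat*, 5.73 for *Srgn*, 5.44 as a lower bound for *Gkn1*, 5.26 for *Pth1r* and 2.47 for *Thbd*.

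**Figure D1:**
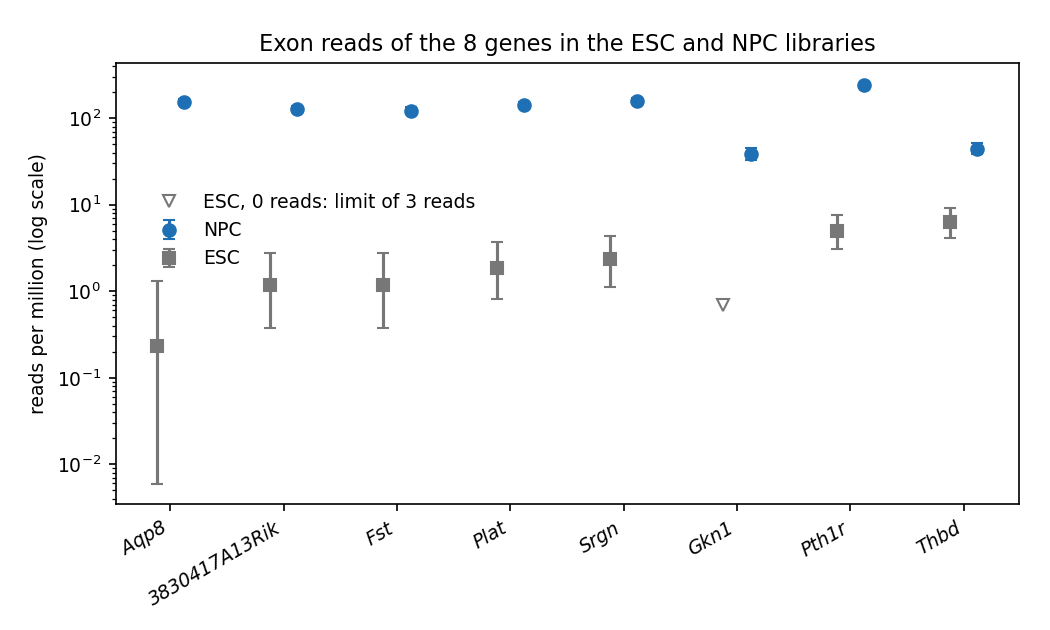
Exon reads in RPM (log axis) of the 8 genes in the ESC library (grey squares) and the NPC library (blue circles), ordered by ratio, with exact Poisson 95% intervals as bars; the open triangle is the limit of 3 reads for a gene with 0 reads. NPC values run from 38.9 for *Gkn1* to 240 RPM for *Pth1r*, and every ESC value is below 7 RPM.

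**Figure D2:**
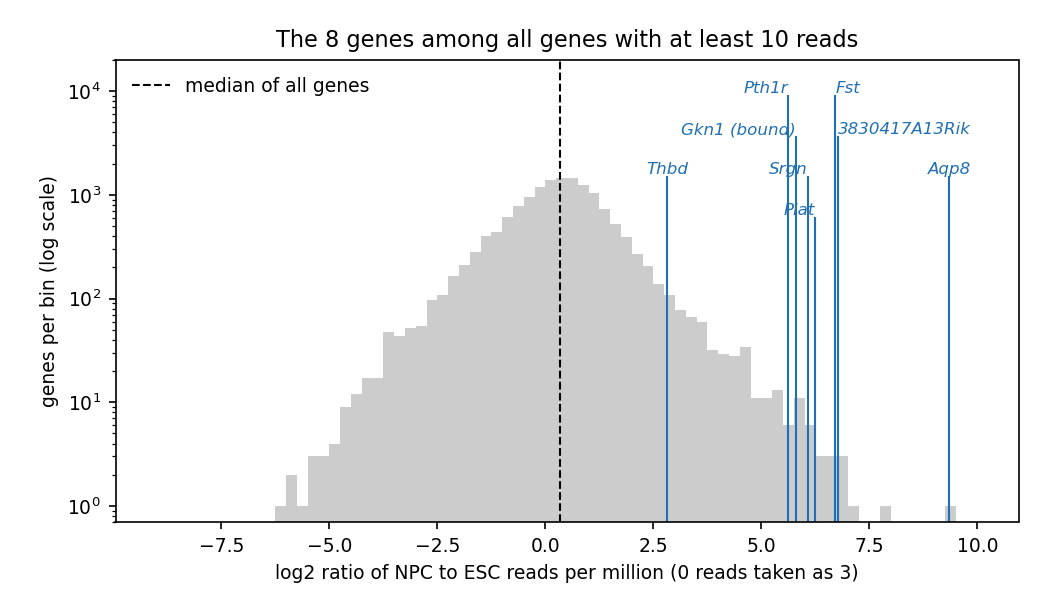
Number of genes (log axis) by log2 ratio of NPC to ESC RPM, for the 14859 genes with at least 10 reads, with the 8 genes as blue lines and the median of all genes, 0.345, dashed. *Thbd* lies at 2.82, 6 of the genes between 5.61 and 6.78, and *Aqp8* at 9.35; the value of *Gkn1* is a lower bound.

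*Plat* encodes tissue plasminogen activator, the secreted protease that turns plasminogen into plasmin. In mm9 it spans chr8:23868216-23893319 on the plus strand (ENSMUSG00000031538.5), with 14 exons. ESCs had 8 reads (exact Poisson 95% interval 3.45 to 15.8) and NPCs 623 (575 to 674), or 1.87 and 142 RPM. The ratio was 75.6 (38.1 to 176). The NPC reads covered 13 of the 14 exons and were densest over the fourth, with 99 reads on 138 nt, while the third, of 43 nt, had 0. The third exon is shorter than a read, so no read of spliced RNA can lie wholly within it. At the fourth exon, 19 NPC reads began with 3 bases that match the preceding exon alone. The count of 0 thus cannot decide whether the RNA holds the third exon.

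*Thbd* encodes thrombomodulin, the membrane protein that binds thrombin and lets it activate protein C. It is a single exon of 3718 nt at chr2:148230207-148233924, minus strand (ENSMUSG00000074743.3). It had the most ESC reads and the smallest ratio of the 8 genes. ESCs had 27 reads (17.8 to 39.3) and NPCs 196 (170 to 225), or 6.32 and 44.5 RPM, a ratio of 7.05 (4.70 to 11.0). The coding part took 48.5% of its NPC read starts and makes up 46.6% of its length, so its share was near that of its length. Along the exon the starts were uneven, with 0 in some stretches of 50 nt and 15 in the one from 2401 to 2450 nt.

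*Srgn* encodes serglycin, the core protein of an intracellular and secreted proteoglycan that was first obtained from a parietal yolk sac tumour and is abundant in blood cells. The gene spans chr10:61956581-61990199, minus strand (ENSMUSG00000020077.8). ESCs had 10 reads (4.80 to 18.4) and NPCs 697 (646 to 751), or 2.34 and 158 RPM, a ratio of 67.7 (36.6 to 142). Its NPC reads stopped well short of the end of its longest transcript. Transcripts of 938 and 694 nt, which share only part of the last exon, held 649 and 644 of the NPC reads. On its longest transcript, 6 of 683 read starts lay beyond the midpoint, a share of 0.878% (Clopper-Pearson 95% interval 0.323 to 1.90%), and the 621 nt that belong to this transcript alone had 12 reads. The upstream first exon (61990087 to 61990199) had 17 NPC reads, and the alternative first exon at 61970661 to 61970845 had 0. Between them, the exon at 61980800 to 61980892 had 9 reads and the one at 61975838 to 61976028 had 0, and both are internal exons of other transcripts. The transcript of 938 nt starts inside the exon at 61970390 to 61970584, where the first 100 nt from its RefSeq start had 38 NPC reads. It has no bases of its own, so the reads do not tell its start from the upstream one.

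*Pth1r* encodes the receptor for parathyroid hormone and parathyroid hormone-related protein, which signals through G proteins. The gene spans chr9:110624592-110649649, minus strand (ENSMUSG00000032492.7). It had the most NPC reads of the 8 genes. ESCs had 21 (13.0 to 32.1) and NPCs 1056 (993 to 1122), or 4.92 and 240 RPM, a ratio of 48.8 (31.8 to 79.2). None of the 3 annotated transcripts had an NPC read in the bases that belong to it alone, so the reads do not tell their first exons apart. The coding part, 79.9% of the transcript with the most reads, took 98.0% of its read starts. *Pth1r* also had the most intron reads, 135 in NPCs and 11 in ESCs, and 30 NPC reads against 3 ESC reads in the 5 kb beyond its 3′ end.

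*Fst* encodes follistatin, a secreted protein that binds activins and blocks them. The gene spans chr13:115242470-115249159, minus strand (ENSMUSG00000021765.6). ESCs had 5 reads (1.62 to 11.7) and NPCs 539 (494 to 586), or 1.17 and 123 RPM, a ratio of 105 (44.6 to 324). Its annotated transcripts end in different exons, and the reads on these last exons lay almost wholly on one of them. The last exon of the longer transcript (115242470 to 115243713) had 365 NPC reads, or 29.3 per 100 nt, and that of the shorter one (115243888 to 115244013) had 1, or 0.794 per 100 nt. The 350 nt that belong to the shorter transcript alone, some of them outside its last exon, had 8 NPC reads.

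*Aqp8* encodes aquaporin 8, a water channel of the membrane. The gene spans chr7:130605808-130611517, plus strand (ENSMUSG00000030762.5). Its ratio was the highest among those of the 14859 genes that had at least 1 ESC read. For a gene with 0 ESC reads the ratio is only a lower bound, so such genes cannot be ranked against *Aqp8*. ESCs had 1 read (0.0253 to 5.57) and NPCs 673 (623 to 726), or 0.234 and 153 RPM, a ratio of 653 whose interval runs from 117 to 25844 because it rests on that single read. The upstream first exon (130605808 to 130605972) had 77 NPC reads and the alternative one (130607265 to 130607355) had 0. The fifth exon (130608623 to 130608837) was densest, with 247 reads or 115 per 100 nt.

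*Gkn1* encodes gastrokine 1, a protein secreted by the lining of the stomach. The gene spans chr6:87295647-87300917, minus strand (ENSMUSG00000030050.2). ESCs had 0 reads (up to 3.69), also over its introns, and NPCs 171 (146 to 199), or 38.9 RPM. Against the 3 reads that a count of 0 allows, the NPC level was 55.3-fold higher, a bound for the ESC count only. With the lower limit of the NPC count it was 47.4-fold higher. Of the 171 reads 148 overlapped the last exon. 3830417A13Rik is a protein-coding gene to which no role is assigned here, at chrX:61426723-61431953, plus strand (ENSMUSG00000031179.8). ESCs had 5 reads (1.62 to 11.7) and NPCs 566 (520 to 615), or 1.17 and 129 RPM, a ratio of 110 (46.8 to 340). Its first exon had 124 NPC reads, or 86.1 per 100 nt, and its alternative first exon of 118 nt had 0. The name NPC-only thus holds at this depth for *Gkn1*, while *Aqp8* had 1 ESC read and 3830417A13Rik had 5.

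Per length, the NPC level was highest for *Aqp8*, at 97.0 RPKM (RPM per kilobase of exon, exact Poisson 95% interval 89.8 to 105). The length is that of all annotated exons merged, also those with 0 reads, so the order depends on the annotation. For *Srgn* the merged exons have 2196 nt, while a transcript of 938 nt held 649 of its 697 NPC reads. *Pth1r* followed at 88.0 (82.8 to 93.5), and the intervals of these neighbours overlapped. 3830417A13Rik at 72.8 RPKM (66.9 to 79.1) and *Srgn* at 72.1 (66.9 to 77.7) were likewise not separated by counting error. *Plat* had 55.9 RPKM (51.6 to 60.5), *Fst* 45.6 (41.8 to 49.6), *Gkn1* 31.6 (27.1 to 36.8) and *Thbd* 12.0 (10.4 to 13.8), each below the gene before it without overlap. In ESCs the level was at most 1.80 RPKM, for *Pth1r*.

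The reads kept to the strand and the exons of the genes. The opposite strand held 1 read in each library over all 8 genes. Introns held 191 NPC and 13 ESC reads, a ratio of 14.3 (8.14 to 27.3) against 57.0 for exons. Intron reads were 11.3% (9.59 to 13.3%) of the NPC reads at *Pth1r*, near the median of 11.7% over the 5783 protein-coding genes with 100 to 1200 NPC reads, and at most 2.66% at each of the others. The 48 nt of the read occurred once in mm9, with no mismatch, for 4439 of the 4521 NPC reads and 72 of the 77 ESC reads. Over the transcript with the most reads, the part beyond the midpoint held 62.2% of NPC read starts at *Pth1r* and 61.6% at *Fst*, 26.7% at *Aqp8* and 1.72% at *Gkn1*. Over 5773 protein-coding genes the median was 46.4% and the quartiles 35.4 and 56.8%. Those genes were each taken on their longest coding transcript, so the choice of transcript was not the same.

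**Figure D3:**
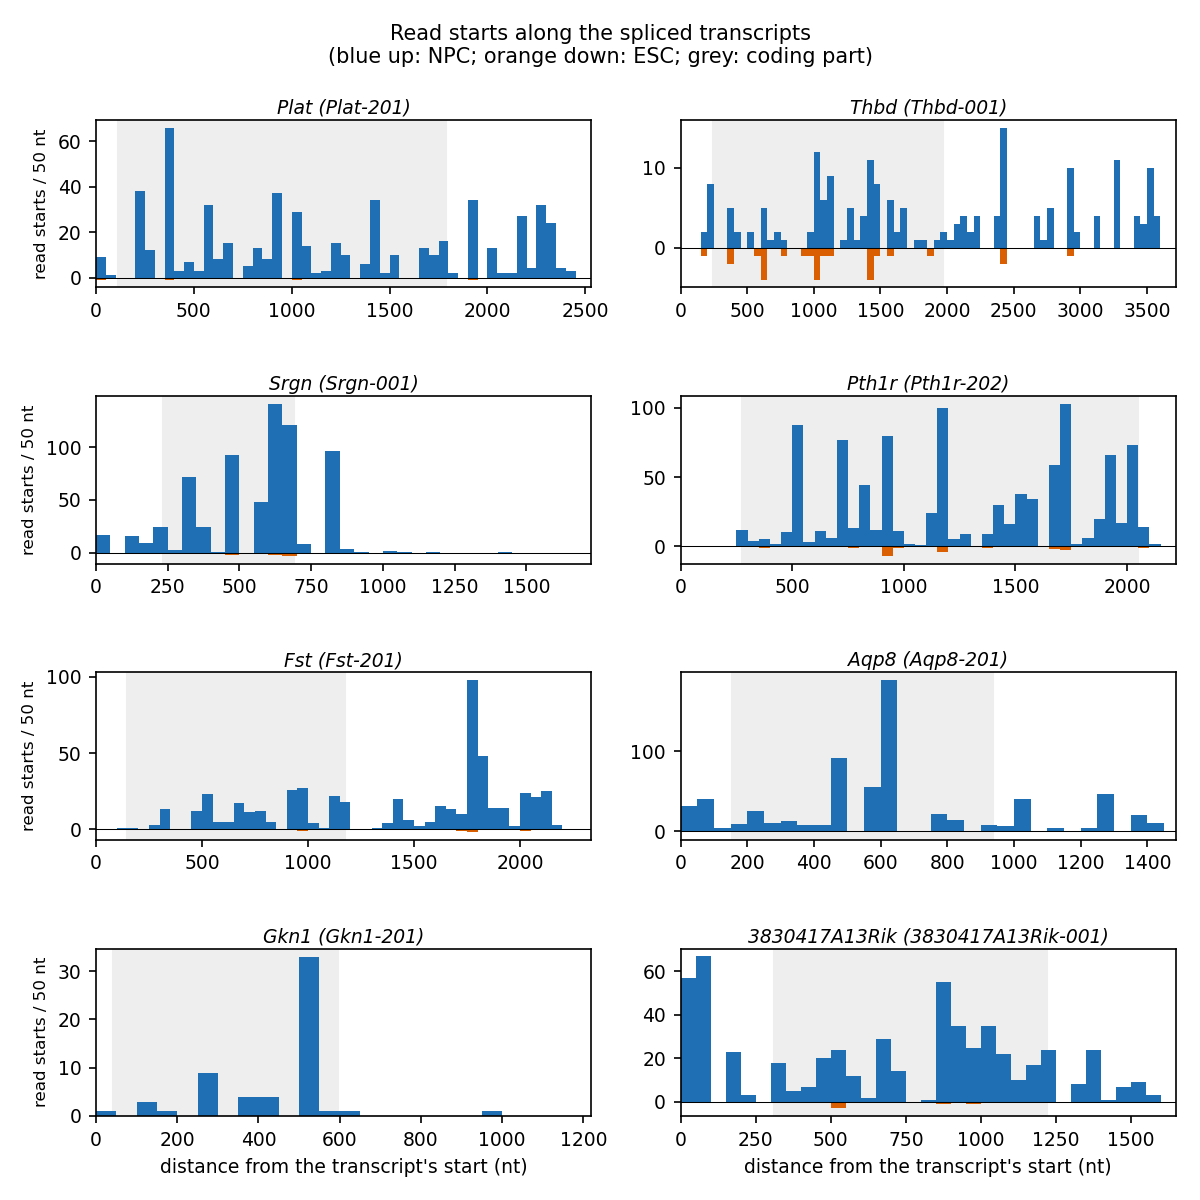
NPC read starts (blue, upward) and ESC read starts (orange, downward) per 50 nt along the spliced transcript of each gene, with distance from its start in nt and the coding part in grey. *Srgn* and *Gkn1* have few starts beyond the midpoint (6 and 1), and reads that begin before an exon are not drawn, which leaves out 112 of *Gkn1*.

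Many reads shared a start. The 4521 NPC reads began at 1345 positions, or 29.8% as many positions as reads, against 34.4% over all genes with at least 10 reads. Gene by gene, the median was 30.0% over the 8 and 55.1% over the 5783 protein-coding genes. The latter were chosen by reads per gene and not by length, so reads per nt, which also bear on this share, were not matched. The share ran from 15.8% at *Gkn1*, with 27 positions, to 57.1% at *Thbd*, with 112. Without molecular identifiers, copies of a fragment cannot be told from fragments cut at the same base. With each start counted once, the log2 ratio was 2.90 as a lower bound for *Gkn1* in place of 5.79, 3.79 for *Srgn*, 4.19 for *Pth1r*, 5.10 for *Fst*, 5.23 for 3830417A13Rik, 5.28 for *Plat*, 7.11 for *Aqp8* and 2.37 for *Thbd*, so that all 8 stayed more than 2-fold higher in NPCs.

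**Figure D4:**
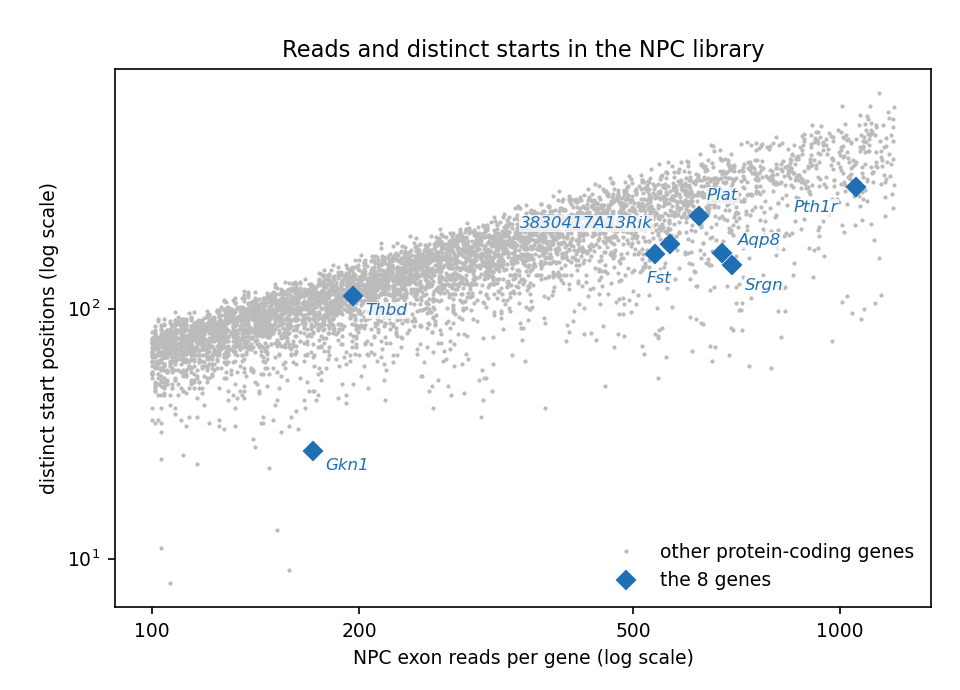
Distinct start positions against NPC exon reads (both log axes) for protein-coding genes with 100 to 1200 NPC reads (grey) and the 8 genes (blue). *Gkn1*, with 27 positions for 171 reads, lies below most genes of its read count, and *Thbd*, with 112 for 196, lies among them.

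The 48 nt at the start with the most reads are shown for the 3 genes where that start says something of the exons, with exon bases in capitals and bases before the exon in lower case, from mm9 and in the direction of the gene.
Gkn1: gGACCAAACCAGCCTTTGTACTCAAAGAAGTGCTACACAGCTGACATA
Plat: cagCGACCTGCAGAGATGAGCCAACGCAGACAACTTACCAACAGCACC
Aqp8: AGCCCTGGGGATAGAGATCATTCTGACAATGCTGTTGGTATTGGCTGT
The *Gkn1* stretch (87296320 to 87296367, minus strand of chromosome 6) begins 1 base before the last exon. It took 112 of the 171 NPC reads, a share of 65.5% (57.9 to 72.6%), and the extra base is the same in the intron and at the end of the preceding exon, so these reads do not tell spliced from unspliced RNA. The *Plat* stretch (23882163 to 23882210, plus strand of chromosome 8) begins 3 bases before the fourth exon. Of its 46 NPC reads 19 matched the preceding exon alone in these bases, 21 the intron alone and 6 neither, and 4 of the 8 ESC reads of *Plat* began there too. The *Aqp8* stretch (130608703 to 130608750, plus strand of chromosome 7) lies inside the coding part of the fifth exon and took 73 of 673 NPC reads, or 10.8% (8.60 to 13.4%).

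RefSeq promoter windows (GRCm38.p6) of 250 bases before to 50 after the start were matched for 5 genes, 8 windows in all, and each was found once at the locus in mm9. The 250 bases before the start are shown for the 3 genes of which 2 carry a GATA word, since GATA factors act in primitive endoderm. Capitals mark the word AGATAA or its variants AGATAG and TGATAA, as well as TGATAG, on either strand.
Gkn1: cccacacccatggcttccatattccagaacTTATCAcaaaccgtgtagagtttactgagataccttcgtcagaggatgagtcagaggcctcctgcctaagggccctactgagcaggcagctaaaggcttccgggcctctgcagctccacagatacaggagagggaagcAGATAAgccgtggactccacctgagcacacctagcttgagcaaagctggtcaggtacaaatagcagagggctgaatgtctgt
3830417A13Rik: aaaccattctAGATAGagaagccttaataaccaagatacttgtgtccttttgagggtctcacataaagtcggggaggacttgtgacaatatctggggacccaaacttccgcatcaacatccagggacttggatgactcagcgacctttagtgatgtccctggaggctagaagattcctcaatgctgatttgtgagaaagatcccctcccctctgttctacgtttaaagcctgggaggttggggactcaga
Aqp8: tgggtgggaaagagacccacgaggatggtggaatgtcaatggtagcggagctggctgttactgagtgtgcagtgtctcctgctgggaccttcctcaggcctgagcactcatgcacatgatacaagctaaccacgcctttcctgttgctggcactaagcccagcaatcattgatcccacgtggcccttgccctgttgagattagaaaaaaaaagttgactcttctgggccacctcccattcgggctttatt
*Gkn1* had 2 such words, TTATCA at -220 and AGATAA at -82 from the start, and 3830417A13Rik had AGATAG at -240. Such words stood in 29.8% of 32851 windows and in 2 of the 8 here. The AP-1 word, TGACTCA or TGAGTCA, was in the same windows, at -174 and -118, and in 5.20% of all windows. *Aqp8* had none of these. Other words were looked for too, so the AP-1 word is a choice from several, and its share was not tested. A SOX word stood in a window of *Pth1r*, at -38, and in 28.6% of all windows. The TEAD word stood in the window of *Aqp8*, at -221, and in 14.7% of all windows. The remaining words looked for are not listed here. A match says that the letters are there and not that a factor binds. *Plat*, *Thbd* and *Fst* had no matched window.

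Marker lists were read against the 25.5% of all genes that were more than 2-fold higher in NPCs and the 13.3% that were so in ESCs. Of 15 genes for the matrix and secretion of parietal endoderm, some of them collagen enzymes that other cells use too, 11 were more than 2-fold higher in NPCs and 0 in ESCs, with a median log2 ratio of 3.29 and summed levels of 1797 RPM in ESCs against 20289 RPM in NPCs. *Sparc* had 1151 ESC and 13828 NPC reads, *Col4a1* 856 and 20753, and *Col4a2* 321 and 9596, a ratio of 29.0 (26.0 to 32.5), while the nidogen gene *Nid2* (811 and 848) and the perlecan gene *Hspg2* (374 and 419) lay within 2-fold, as did *P4ha1* and *Fbn1*. Of 16 regulators and receptors of primitive endoderm 15 were higher, with sums of 150 and 1713 RPM, among them *Gata6* with 8 and 459 reads, *Gata4* with 61 and 1179, and *Foxa2* with 2 and 113. The lowest ratios in that list were at *Amn*, with 7 and 12, and *Fgfr3*, with 33 and 145. The visceral endoderm list had 8 of 11 higher in NPCs and 2 in ESCs, with sums of 121 and 673 RPM. *Afp* had 1 and 141 reads and *Apob* 5 and 134, while the transferrin gene *Trf*, whose symbol more than 1 gene model carries, had 79 and 3, and *Cpn1* had 12 and 6. Most NPC reads of this list were those of *Lrp2* (1939) and *Cubn* (529), which the list of primitive endoderm also holds. The trophoblast list had 7 of 9 higher, with sums of 33.9 and 278 RPM. *Rhox6* had 13 and 352 reads and *Plac1* 2 and 72, while the regulators *Eomes* (12 and 14) and *Gcm1* (4 and 6) lay within 2-fold, and *Cdx2* had 0 and 2 reads.

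Lists of other cell types were counted in the same way. *Thbd*, *Plat* and *Srgn* are also products of endothelium, and of that list 3 of 6 genes were higher in NPCs and 2 in ESCs, with sums of 132 RPM in ESCs and 70.5 RPM in NPCs. *Cdh5* had 0 ESC and 74 NPC reads, *Esam* 6 and 55, and *Kdr* 9 and 29. *Pecam1* held 475 of the 564 ESC reads of the list and 100 of its 310 NPC reads, so the sums follow this gene. *Vwf* had 38 and 6, and *Emcn* and *Sox18* 0 in both. Of 13 blood cell genes 5 had at least 10 reads, 1 of them higher in NPCs (*Kit*, 631 and 1558) and 2 in ESCs. The list summed to 169 and 366 RPM, most of it from *Kit*, and *Ptprc*, *Cd53*, *Cpa3*, *Gzmb* and 3 globin genes had 0 reads in both libraries. Of 7 fibroblast genes 2 were higher in NPCs and 1 in ESCs, with sums of 46.4 and 63.0 RPM. For the label of the NPC library, 2 of 8 neural progenitor genes were higher in NPCs (*Pax6*, 1 and 12 reads, and *Zic1*, 1 and 22). Higher in ESCs were 2 (*Sox2*, 879 and 134, and *Notch1*, 481 and 203), *Olig2* and *Dlx1* had 0 reads, and the sums were 493 and 325 RPM. The other 4 lay within 2-fold, namely *Vim* (469 and 706), *Otx2* (109 and 161), *Nes* (66 and 121) and *Msi1* (99 and 60). *Sox2* held 879 of the 2106 ESC reads of the list and 134 of its 1430 NPC reads, so it weighs on the sums. The median log2 ratio of the list was 0.534, against 0.345 over all genes. Of 12 pluripotency genes 9 were higher in ESCs, and *Pou5f1* kept 724 NPC reads against 2623. The part of these cell types in the members' ratios was not tested.

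The pathway lists around the genes were read against the same 25.5%, or the 12.9% of all genes that were more than 2-fold higher with each start counted once. Around *Plat*, 3 of 9 further genes of plasminogen activation were more than 2-fold higher in NPCs and 1 in ESCs, and with each start counted once or with the libraries scaled by the median gene ratio only *Plaur* stayed higher. The urokinase receptor gene *Plaur* had 36 ESC and 390 NPC reads, a ratio of 10.5 (7.47 to 15.2). The urokinase gene *Plau* had 8 reads in each library, and *Plg*, for plasminogen itself, 0. The receptor gene *Lrp1*, which clears activator complexes, had 157 and 69. Around *Thbd*, 5 of 9 further genes of thrombin and protein C were higher in NPCs and 1 in ESCs. *F3*, for tissue factor that starts clotting, had 48 and 746 reads, a ratio of 15.1 (11.3 to 20.6), and *Tfpi*, for its inhibitor, had 191 and 1205, a ratio of 6.12 (5.25 to 7.17). *F2*, for prothrombin, had 12 and 13.

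Around *Pth1r*, 3 of 8 further genes were higher in NPCs and 0 in ESCs, and with each start counted once 0 were higher in NPCs. Its ligand genes were hardly seen, with 2 ESC and 0 NPC reads for *Pthlh* and 0 in both for *Pth*. *Gnas*, for the stimulatory G protein, had 397 and 1051 reads, a ratio of 2.57 (2.29 to 2.89), and the transcription factor gene *Creb1* had 114 and 341. Around *Fst*, 5 of 17 further genes of activin signalling were higher in NPCs and 5 in ESCs, a share near that of all genes for NPCs. For ESCs the share of all genes was 13.3%. With each start counted once, and also with median scaling, 4 were higher in NPCs and 7 in ESCs. The activin subunit gene *Inhbb* went the other way from *Fst*, with 97 ESC and 6 NPC reads, as did the Nodal inhibitor gene *Lefty1*, with 128 and 14. The co-receptor gene *Tgfbr3* had 27 and 359, and *Smad4* 125 and 504.

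Around *Srgn*, 4 of 18 further proteoglycan cores were higher in NPCs and 5 in ESCs, again near the share of all genes for NPCs, and 2 with each start counted once. The glypican gene *Gpc6* had 18 and 263 reads, a ratio of 14.2 (8.80 to 24.3), and the aggrecan gene *Acan* 65 and 11. Among aquaporins, 0 of 3 others with at least 10 reads were higher in NPCs and 2 were higher in ESCs, with *Aqp3* at 217 and 80. In the stomach and gut list, 1 of 5 genes other than *Gkn1* was higher in NPCs, *Gkn2*, and 1 in ESCs. *Gkn2* had 0 ESC and 68 NPC reads. *Gkn2* lies near *Gkn1*, at chr6:87323359-87329488, plus strand. *Gkn3*, *Tff1*, *Tff2*, *Muc5ac*, *Gif* and *Atp4b*, which mark stomach cells, had 0 reads in both.

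Some genes had patterns like those of the 8. By NPC reads among genes with 0 ESC reads, *Gkn1* had rank 4, after Gm15070 with 359, *Serpinb9e* with 291 and *Ptk6* with 212, and before *Ugt2b34* with 159. *Serpinb9e*, 9f, 9g and 9d were among the first 15, and as close paralogs they can share reads, so their counts are uncertain. By ratio among the 6746 genes with at least 1 ESC and 100 NPC reads, *Aqp8* came first, followed by *Bmper* (2 and 477 reads) and *Afp*. 3830417A13Rik and *Fst* had ranks 5 and 6, and *Plat*, *Srgn*, *Pth1r* and *Thbd* had ranks 11, 12, 24 and 181.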

How the data were processed

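Per the labels and the methods, the authors aligned SOLiD reads to mm9 with Bowtie, kept 1 placement for reads that match several places, and removed mitochondrial, ribosomal and Repeat Masker reads, so a stretch of a gene in a repeat holds none. They deposited other values than counts: the chromosome, start, end, strand and 48 nt of sequence of each placement. Reads overlapping exons of GENCODE M1 genes by at least 1 base on their strand were counted here. A single read equals 0.234 RPM (ESC) or 0.227 RPM (NPC), so 0 reads, taken as 3, allow 0.702 and 0.682 RPM. The sequence was found once in mm9, without mismatch, for 78.2% and 83.2% of reads. With 1 library per cell type no test was made. The genes and lists were chosen with earlier results of these data known. Named genes are the 8 and a choice from those of each list with the highest NPC RPKM or the highest or lowest ratio and from the genes most like the 8. *P4ha1*, *Fbn1*, *Cdx2*, *Kdr*, *Nes*, *Msi1*, *Pthlh*, *Plg*, *F2* and genes at 0 reads in both libraries were added after their values were seen. The fold of 16 was also chosen after seeing the data. Counting and intervals were tested on simulated data. Tools were SAMtools 1.23.1, pysam 0.24.0, Python 3.11.15 with matplotlib 3.10.9, pandas 2.3.3, numba 0.67.0, SciPy 1.17.1 and NumPy 2.4.6.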

Additional observations from a re-analysis of the deposited data

How the results depend on the processing

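The 8 ratios were recomputed under 9 alternatives. Of the 72 values 30 equal the reported ones, most because the setting cannot change them, such as another minimum of reads. The other 42 stayed above 0 on the log2 scale, from 2.37 to 9.34, and 7 of them left the counting interval. Of these, 5 came from counting each start once; the others were *Gkn1* at 5.45 when the libraries were scaled by the median ratio of 1.30 over 12176 genes, and at 4.23 when reads were assigned by their 5′ end, which leaves out its 112 reads that begin before an exon.

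The share of all genes more than 2-fold higher in NPCs was 12.9% with each start counted once, 16.6% with median scaling, 24.4% with reads found once in mm9, 24.6% with 1 read added and 24.7% with at least 50 reads. The share with 0 ESC reads was 0.215% with at least 50 reads and 8.88% with no minimum. The following list counts include the gene of the 8 that a list holds. With each start counted once, genes higher in NPCs numbered 0 for blood cells, 1 for fibroblasts, 2 for plasminogen activation, 1 for parathyroid hormone signalling and 3 for proteoglycan cores, and 1 aquaporin gene was higher in ESCs. With median scaling, genes higher in NPCs numbered 0 for blood cells, 2 for plasminogen activation and 3 for proteoglycan cores, and 3 stomach and gut genes were higher in ESCs. Without the 8 genes, 1 of plasminogen activation, 0 of parathyroid hormone signalling and 2 of proteoglycan cores stayed higher in NPCs with each start counted once. No paired analysis was possible because each cell type has 1 library and no test was made. No library could be left out for the same reason. The ESC counts limit the precision: *Aqp8*, *Gkn1*, *Fst* and 3830417A13Rik rest on 5 ESC reads or fewer.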
